A study of Mus musculus with 2 samples.

Results

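The receptors of the interleukin-1 (IL-1) family were followed in colonic lamina propria (LP) immune cells of mice with dextran sulfate sodium (DSS) colitis. The members were 6 genes of the 32228 counted, namely Il1rl1, Il18r1, Il18rap, Il1r1, Il1r2 and Il1rap, chosen by name as the chains that bind IL-33, IL-18 and IL-1. Earlier results of these data were known when they were chosen. The data were 10x Genomics single-cell RNA-seq counts of living CD45+ cells sorted from the colon of C57BL/6 mice aged 8 to 10 weeks. Colons of 5 DSS-treated WT mice were pooled into 1 library and those of 5 DSS-treated Ring1aKO mice into another, so no untreated mice were compared. Ring1aKO mice carried a knockout of Ring1, which encodes a catalytic subunit of Polycomb repressive complex 1. With 1 library per genotype no test was possible, and genotype and library cannot be told apart.

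Levels are given in counts per 1000000 (CPM), in which the unique molecular identifiers (UMIs) of a gene are divided by all UMIs of its class, with exact 95% Poisson intervals in parentheses. A difference is the log2 ratio of the Ring1aKO library over the WT library with its exact 95% interval, and 1 on that scale is 2-fold. Intervals cover counting error only, not the spread between mice. Those of levels and ratios treat each UMI as independent, so they also leave out the spread between cells. After filtering there were 6005 WT cells with a median of 6354 UMIs and 7918 Ring1aKO cells with a median of 5035 UMIs. Sets of marker genes gated 1788 WT cells (29.8%) and 1760 Ring1aKO cells (22.2%) into 10 classes. These were group 2 innate lymphoid cells (ILC2, 184 WT and 113 Ring1aKO cells), ILC3 (47 and 45), Foxp3+ regulatory T cells (Treg, 210 and 220), Th17 (107 and 50) and other CD4 T cells (335 and 311). The remaining classes were CD8 T (523 and 597), γδ T (65 and 114), NK (117 and 73), neutrophils (197 and 213) and mast cells (3 and 24). Markers outside the gates were checked only in the classes they were chosen for. Areg was at 1380.4 and 1001 CPM in ILC2, Ctla4 at 2874 and 2884 CPM in Treg and S100a9 at 77008 and 109214 CPM in neutrophils. Some were sparse, with Ccl20 in 7 of 107 and 1 of 50 Th17 and Kit in 1 of 3 WT mast cells. No such marker was read for γδ T or other CD4 T cells. Ring1 was counted at 13.4 CPM (12.5 to 14.3) in WT cells and 11.8 (11.0 to 12.7) in Ring1aKO cells, and a 3′ count does not check whether the transcript is disrupted upstream. Of the cell barcodes, 11 occurred in both libraries.

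The receptors of this family share an architecture of immunoglobulin-like domains outside the cell and, in most members, a TIR domain inside it that recruits MyD88 and IRAK kinases and activates NF-κB. A ligand-binding chain captures the cytokine and an accessory chain then joins it. ST2, encoded by Il1rl1, binds the epithelial alarmin IL-33 and pairs with the accessory protein encoded by Il1rap. The same accessory protein serves the IL-1 receptor encoded by Il1r1, whereas the IL-18 receptor consists of the chains encoded by Il18r1 and Il18rap. Il1r2 encodes a decoy without a signalling TIR domain, which takes up IL-1 without passing on a signal. In the intestine, ST2 is known as a marker of ILC2, mast cells and a GATA3+ Treg subset, IL-1 receptor of type 17 lymphocytes, and IL-18 receptor of NK, Th1 and Treg cells.

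Of the 6 genes, 5 lie in a cluster on mouse chromosome 1. In GENCODE vM21 on GRCm38 they all read on the plus strand within 478 kb, from 40074079 to 40551705, in the order Il1r2, Il1r1, Il1rl1, Il18r1 and Il18rap. Il1rl1 (ENSMUSG00000026069) spans 40429570 to 40465415 and Il18r1 (ENSMUSG00000026070) 40465552 to 40500854, so that 136 bases separate them. Il18rap (ENSMUSG00000026068) follows after a gap of 14507 bases, at 40515362 to 40551705. Il1r1 (ENSMUSG00000026072) spans 40225080 to 40317257 and Il1r2 (ENSMUSG00000026073) 40074079 to 40125231, while Il1rap (ENSMUSG00000022514) is on chromosome 16 at 26581704 to 26730117. An antisense gene overlaps Il1rap and another overlaps Il1r2, and a UMI there could belong to either gene if strand was not used in counting. Il1r2 and Il1r1 also each overlap a gene on their own strand, which strand cannot resolve. Of the 2 genes that overlap Il1r2, 1 was among the genes counted, and the gene at Il1r1 was not. The counted files hold no coordinates, and these positions come from the annotation alone.

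**Figure D1:**
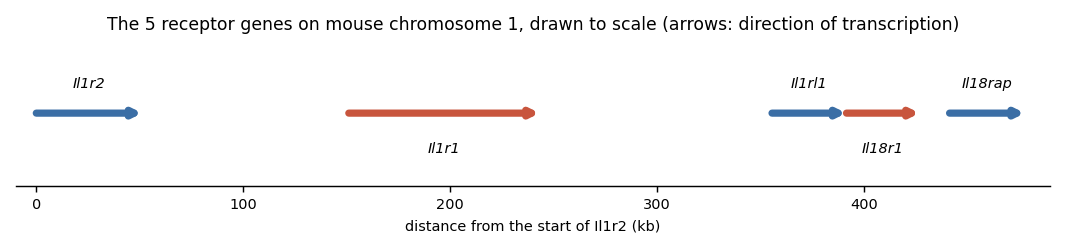
Positions of the 5 receptor genes of chromosome 1 along an axis of distance in kb from the start of Il1r2, with arrows in the direction of transcription. Il1rl1 and Il18r1 lie 136 bases apart, and Il1rl2, which sits between Il1r1 and Il1rl1, is not drawn.

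The stretches before 3 of these starts are shown because Il1rl1, Il18r1 and Il18rap were all lower in Treg of the Ring1aKO library and are neighbours. They are read 5′ to 3′ on the plus strand of GRCm38.p6 from RefSeq and end at the base before the annotated gene start, at chr1:40429320-40429569 for Il1rl1, chr1:40465416-40465551 for Il18r1 and chr1:40515112-40515361 for Il18rap. The Il18r1 stretch is the whole gap after Il1rl1. Capitals mark GATAA, the core letters that GATA factors bind, on either strand.
Il1rl1: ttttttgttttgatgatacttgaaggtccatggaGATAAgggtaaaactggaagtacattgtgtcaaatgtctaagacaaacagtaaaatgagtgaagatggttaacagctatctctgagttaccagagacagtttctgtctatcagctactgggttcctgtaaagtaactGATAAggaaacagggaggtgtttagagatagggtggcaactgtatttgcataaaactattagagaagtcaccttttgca
Il18r1: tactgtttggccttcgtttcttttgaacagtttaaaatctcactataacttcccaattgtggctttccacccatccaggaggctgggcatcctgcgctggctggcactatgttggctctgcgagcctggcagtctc
Il18rap: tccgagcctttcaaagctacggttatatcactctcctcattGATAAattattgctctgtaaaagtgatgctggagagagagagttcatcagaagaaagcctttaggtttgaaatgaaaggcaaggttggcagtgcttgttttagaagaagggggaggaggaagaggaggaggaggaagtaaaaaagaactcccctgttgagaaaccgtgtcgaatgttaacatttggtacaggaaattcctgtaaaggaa
GATAA occurred 2 times before Il1rl1, 1 time before Il18rap and not in the gap before Il18r1. Among all 32851 promoter windows of 300 bases, 25.4% held it. The stretches shown are shorter, at 250, 136 and 250 bases, so a match in them is less likely by length alone. The T-box letters GGTGTG, held by 19.0% of all windows, were in none of these 3 stretches. The PU.1 letters GAGGAAG, held by 13.6%, occurred 2 times before Il18rap. All motifs were searched on both strands. Other windows of these genes, not shown, held 1 GATAA for Il1rl1 and 1 GGTGTG and 1 GAGGAAG for Il18r1. Such matches describe the letters only, and a 3′ count cannot tell which start a transcript used.

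The receptors differed in the cells that held them, with some overlap. Il1rl1 was a gene of Treg, ILC2 and mast cells. By WT levels Il18r1 was a gene of Th17, NK and ILC3. In the Ring1aKO library γδ T cells held Il18r1 at 202 CPM (169 to 240.4), an interval that overlapped those of Th17, NK and ILC3. Il18rap was a gene of NK, Il1r1 of ILC3 and Th17, and both Il1r2 and Il1rap of neutrophils. B cells, which should lack Il1rl1, gave the background from free RNA at 0.809 CPM (0.263 to 1.89) in the WT library and 1.20 (0.745 to 1.84) in the Ring1aKO library. The free RNA itself, in barcodes under 100 UMIs, held 28.9 and 26.2 CPM of Il1rl1.

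**Figure D2:**
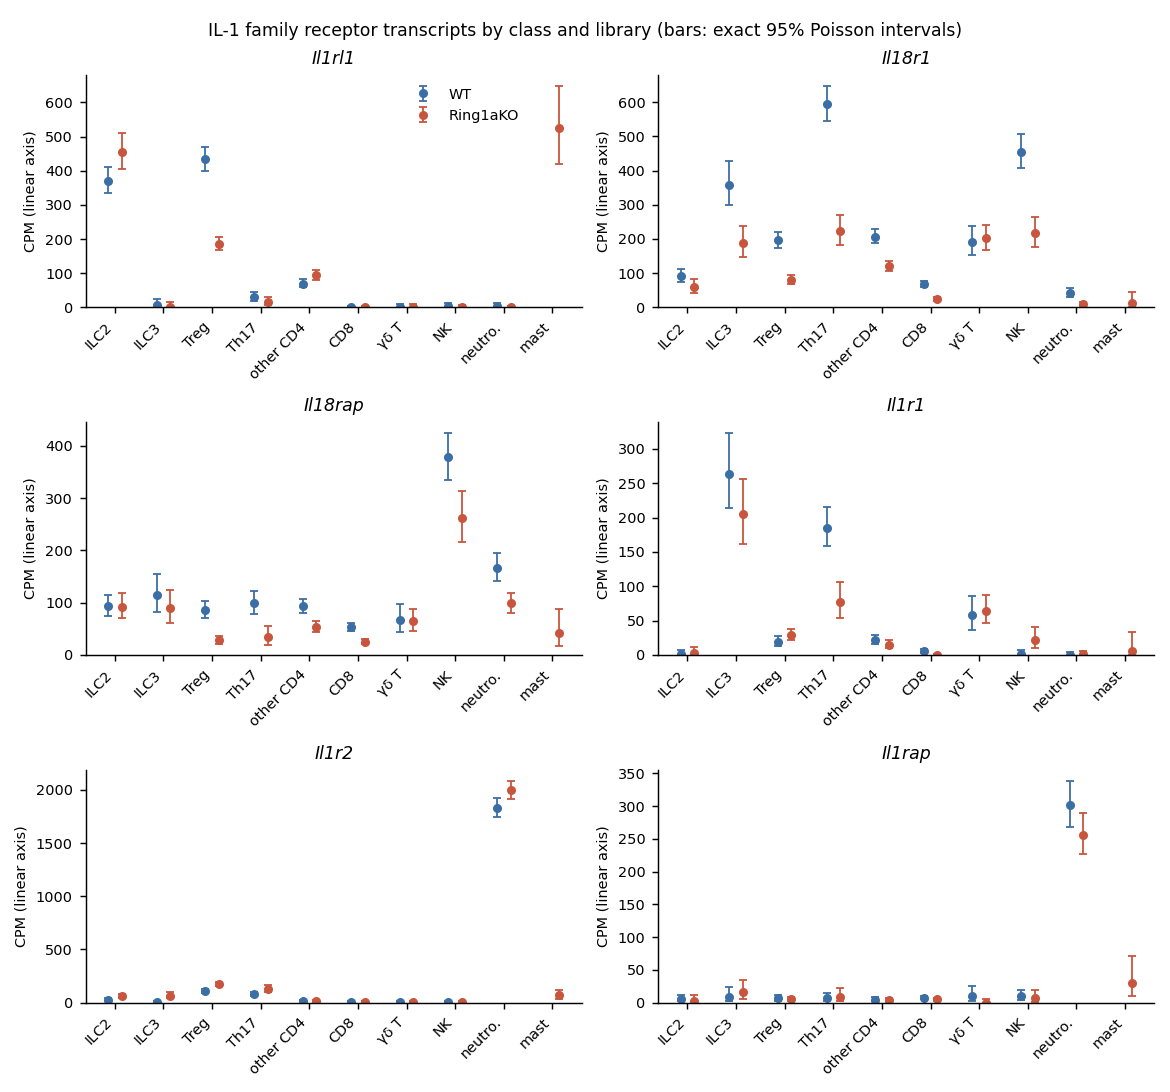
Level of each of the 6 receptor genes in CPM, on a linear axis, in the 10 classes, with WT in blue and Ring1aKO in red and bars for exact 95% Poisson intervals. The 3 WT mast cells are not drawn. Il18r1 points of the Ring1aKO library lie below those of WT in every lymphoid class but γδ T.

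ST2 transcripts separated Treg from ILC2 in their difference between the libraries. In Treg, Il1rl1 was at 433 CPM (399 to 468) in the WT library and 186 (167 to 205) in the Ring1aKO library, for a log2 ratio of -1.22 (-1.41 to -1.03). In ILC2 it was at 371 CPM (334 to 412) and 456 (406 to 511), for a log2 ratio of 0.30 (0.07 to 0.52). Treg thus lay above ILC2 in the WT library, where the intervals overlap, and below it in the Ring1aKO library, where they are apart. By share of cells, more WT ILC2 (45.1%) than WT Treg (34.8%) held an Il1rl1 UMI. In other CD4 T cells, which lack Foxp3 and type 17 transcripts, Il1rl1 was at 69.7 CPM (58.5 to 82.4) and 94.3 (81.1 to 109), for a log2 ratio of 0.43 (0.11 to 0.77). Th17 held 27 and 7 UMIs, and ILC3, CD8 T, γδ T, NK and neutrophils held 9 UMIs or fewer in either library.

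Fewer Treg held an Il1rl1 UMI in the Ring1aKO library, and the UMIs in them were fewer too. A UMI was found in 73 of 210 WT Treg (34.8%) and in 57 of 220 Ring1aKO Treg (25.9%), with 619 UMIs in the former and 375 in the latter. After each cell was thinned to 1000 UMIs the shares were 24.8% (19.1 to 31.2) and 17.3% (12.5 to 22.9), and these intervals overlap. In B cells thinned likewise the shares were 0.170% and 0.114%, at median depths before thinning of 4189 and 4315 UMIs against 5563 and 6326 in Treg. When Treg were weighted equally, as the mean of each cell's CPM, the log2 ratio was -0.64, and without the 5% of cells with the most UMIs it was -0.90. Thus the direction held while the size of 2-fold did not.

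Within Treg the transcript followed the GATA3 and Helios arm. Gata3 encodes a factor of the ST2+ Treg subset, and Ikzf2 encodes Helios. Treg with a UMI of Gata3 or Ikzf2 held Il1rl1 at 499 CPM (459 to 540.5) in the WT library and 235 (212 to 261) in the Ring1aKO library, in 70 of 175 and 56 of 174 cells. Treg with neither held 101 CPM (64.7 to 150.2) on 24 UMIs from 3 of 35 cells and 4.58 CPM (0.554 to 16.5) on 2 UMIs from 1 of 46 cells. The Ring1aKO level was therefore lower within the Gata3 or Ikzf2 subset as well. Over all Treg, Gata3 itself was at 328 and 211 CPM and Ikzf2 at 1149 and 623 CPM.

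Genes of naive and recirculating lymphocytes also differed in Treg, but not in one direction. The summed level of Ccr7, Lef1 and S1pr1 in Treg was 319 CPM in the WT library and 525 in the Ring1aKO library, and 47.1% and 58.2% of Treg held a UMI of any of them. The 3 did not move alike, since Ccr7 was at 167 and 440.3 CPM, Lef1 at 30.8 and 36.6 CPM and S1pr1 at 121 and 48.0 CPM. The higher sum thus came from Ccr7. In Treg with such a UMI, Il1rl1 was at 407 CPM (363 to 455) and 119 (102 to 138). In Treg without one it was at 461 CPM (411 to 516) and 369 (319 to 424), for a log2 ratio of -0.32. The part of these genes in the Il1rl1 difference was not tested.

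**Figure D3:**
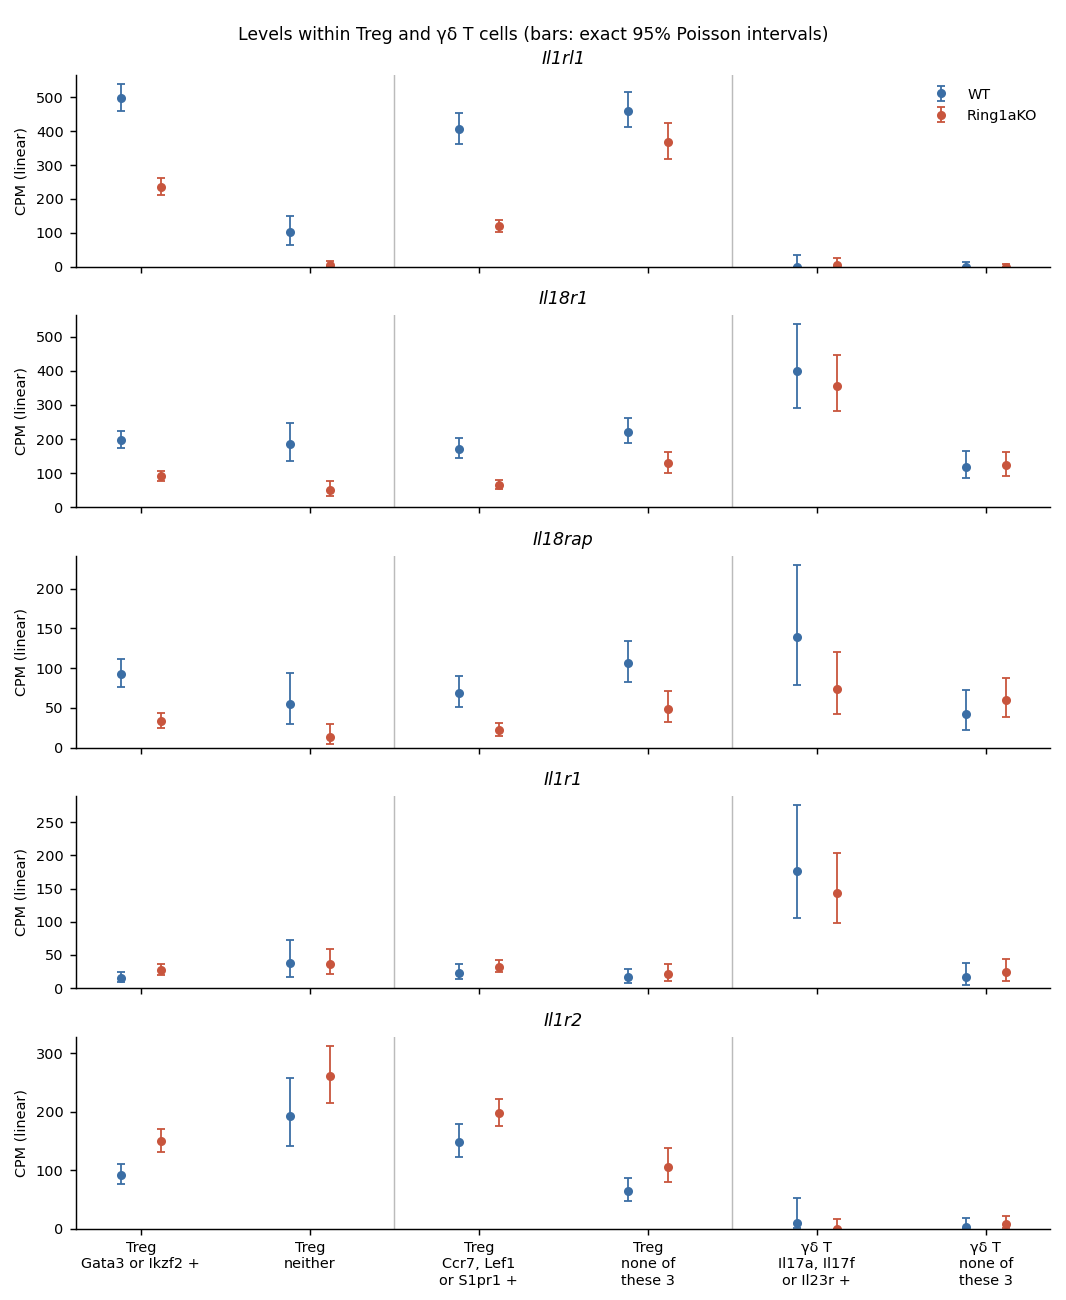
Levels of 5 receptor genes in CPM, on linear axes, within subsets of Treg and γδ T cells, with WT in blue, Ring1aKO in red and bars for exact 95% Poisson intervals. Il1rl1 is higher in Treg with Gata3 or Ikzf2 than in Treg with neither. Il18r1 and Il1r1 are highest in the γδ T cells with Il17a, Il17f or Il23r. The split by Gata3 and Ikzf2 and the split by Ccr7, Lef1 and S1pr1 divide the same Treg.

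Mast cells were the third home of Il1rl1. The 24 mast cells of the Ring1aKO library held 87 UMIs, or 526 CPM (421 to 649), with at least 1 UMI in 19 of the 24 cells. The 3 mast cells of the WT library held 0 UMIs, and 3 UMIs there would be 165 CPM, so the classes cannot be compared. Il1rap, the accessory chain, had 5 UMIs in mast cells of the Ring1aKO library and 1 in those of the WT library. Together Treg, ILC2 and other CD4 T cells held 40.5%, 23.9% and 8.89% of all Il1rl1 UMIs of WT cells, and 26.6%, 21.3% and 12.8% of those of Ring1aKO cells. A further 17.8% and 13.8% lay in cells in no gate. Another 4.58% and 15.3% lay in cells that passed the gates of more than 1 lineage, which were left out of all classes.

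The binding chain of the IL-18 receptor was lower in the Ring1aKO library in most of the gated T cell, ILC and NK classes. Outside them it differed less. Cells in no gate held 21.1% and 29.4% of its UMIs, with a log2 ratio of -0.19 (-0.36 to -0.02). In B cells the log2 ratio was -0.28 (-1.01 to 0.56). Among the 9 classes compared, Il18r1 reached the minimum of 50 UMIs over both libraries in 8. Of these, 7 were lower with intervals below 0 and 4 were past 2-fold. The share of all genes with such intervals is not given. In Th17 it was at 595 CPM (546 to 648) and 222 (181 to 269), for a log2 ratio of -1.41 (-1.74 to -1.12). In NK cells, where IL-18 is known to elicit interferon-γ, it was at 455 CPM (407 to 506) and 218 (177 to 265), for a log2 ratio of -1.05 (-1.40 to -0.73), which lay between -0.97 and -0.90 in 3 alternatives. One of these left out cells with 10 or more UMIs of antigen-presenting cell genes (Cd74, H2-Aa, H2-Ab1, Fscn1 and Ccl22), which were 1 of 117 NK cells in the WT library and 8 of 73 in the Ring1aKO library and held 0 and 11 of the Il18r1 UMIs. The log2 ratio without them was -0.96, short of 2-fold. CD8 T cells had less of it, 68.3 CPM (60.1 to 77.3) and 24.1 (19.5 to 29.5), with a log2 ratio of -1.49 (-1.86 to -1.16). Thus classes with high and with low Il18r1 levels differed alike in direction. ILC3 held 359 CPM (299.8 to 427) and 189 (148 to 238), other CD4 T cells 207 (187 to 228) and 121 (106 to 137), and ILC2 92.4 (74.4 to 113) and 60.7 (43.3 to 82.6). Their log2 ratios were -0.92, -0.77 and -0.59.

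γδ T cells were the exception. Il18r1 there was at 192 CPM (152 to 239) in the WT library and 202 (169 to 240.4) in the Ring1aKO library, for a log2 ratio of 0.07 (-0.34 to 0.50). Its interval did not reach those of Treg, Th17, CD8 T or NK cells. The γδ T cells with a UMI of Il17a, Il17f or Il23r held it at 400.3 CPM (289.7 to 539) and 357 (281 to 446), and the others at 119 (84.1 to 165) and 123 (92.1 to 162). Such type 17 cells were 14 of 65 γδ T cells in the WT library and 33 of 114 in the Ring1aKO library.

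In Treg, Il18r1 was at 196 CPM (173 to 220.0) and 81.6 (69.6 to 95.1), for a log2 ratio of -1.26 (-1.55 to -0.98). It was spread over the subsets rather than held by one, with 198 CPM (173 to 225) in the WT Treg with Gata3 or Ikzf2 and 185 (134 to 248) in those with neither. The same subsets of the Ring1aKO library held 90.2 CPM (76.1 to 106) and 50.3 (31.6 to 76.2). The share of Treg with a UMI differed less than the level, 46.2% and 41.4%, and 14.8% (10.3 to 20.3) and 11.4% (7.49 to 16.3) after thinning. In Treg without a UMI of Ccr7, Lef1 or S1pr1, Il18r1 was at 222 and 129 CPM, for a log2 ratio of -0.78. With the mean over all Treg the log2 ratio was -0.99.

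Ccr7, Lef1 and S1pr1 did not move one way over the classes in which Il18r1 was lower. Their summed level was higher in the Ring1aKO library in Treg, in Th17 (265 and 421 CPM), in other CD4 T cells (528 and 649 CPM), in NK cells (55.3 and 192 CPM) and in ILC3 (161 and 402 CPM). In NK cells 62 of the 74 Ccr7 UMIs of the Ring1aKO library lay in 1 cell. In all 5 classes Ccr7 was counted at a higher level in the Ring1aKO library and S1pr1 at a lower level. The S1pr1 ratio interval spanned 0 in Th17, NK cells (9 and 4 UMIs) and ILC3 (6 and 5 UMIs). In ILC2 the sum was also higher, 24.4 and 53.1 CPM. S1pr1 there was counted higher, on 6 and 11 UMIs, with a ratio interval of -0.11 to 3.17. The summed level was lower in CD8 T cells, 301 and 219.6 CPM, and in γδ T cells, 324 and 113 CPM. Without the cells that held a UMI of them, the log2 ratio of Il18r1 was -0.50 in CD8 T cells and -0.31 in other CD4 T cells. Il18r1 in the free RNA was also lower, at 70.3 CPM in the WT library and 33.8 in the Ring1aKO library. Subtracting the free profile left all 4 differences past 2-fold.

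The accessory chain Il18rap was lower in 9 of 9 classes measured, although in ILC2 and γδ T cells the sign turned under other settings. Of the 9, 6 had intervals below 0, again without the share of all genes that had them, and 3 were past 2-fold. NK cells held the most, 378 CPM (335 to 425) and 262 (217 to 313), for a log2 ratio of -0.52 (-0.85 to -0.22). In Treg it was at 86.0 CPM (71.4 to 103) and 28.7 (21.8 to 37.1), for a log2 ratio of -1.57 (-2.06 to -1.12). In Th17 it was at 98.8 CPM (79.3 to 122) and 34.2 (19.5 to 55.5) on 88 and 16 UMIs, for a log2 ratio of -1.46 (-2.40 to -0.75). The shares of Th17 with a UMI of it were nearly the same after thinning, 8.41% (3.92 to 15.4) and 8.00% (2.22 to 19.2). CD8 T cells held 53.7 CPM (46.4 to 61.7) and 25.6 (20.9 to 31.2), with a log2 ratio of -1.06 (-1.43 to -0.71). Both chains of the receptor were thus past 2-fold lower in Treg, Th17 and CD8 T cells. In Treg the Il18rap difference stayed past 2-fold in every alternative tried, at -1.64 to -1.09.

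Neutrophils expressed the accessory chain without much of the binding chain. Il18rap was at 167 CPM (142 to 195) in neutrophils of the WT library and 98.6 (80.6 to 119) in those of the Ring1aKO library, for a log2 ratio of -0.76 (-1.13 to -0.39). It was found in 98 of 197 and 78 of 213 neutrophils, and after thinning in 12.7% (8.38 to 18.2) and 11.3% (7.35 to 16.3). The median log2 ratio of all genes measured in neutrophils was -0.22. Il18r1 had 39 UMIs in 16 WT neutrophils, 20 of them in 1 cell, and 10 UMIs in 7 Ring1aKO neutrophils. In ILC2, Il18rap was at 93.4 CPM (75.3 to 115) and 92.5 (70.8 to 119), for a log2 ratio of -0.01 whose interval of -0.51 to 0.47 leaves room for differences in both directions, and the sign turned in 7 alternatives. γδ T cells likewise held it at 67.1 and 64.3 CPM, for a log2 ratio of -0.08 (-0.79 to 0.69), with a sign that turned in 3 alternatives.

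The accessory chain was counted more often in cells with the binding chain than in cells without it. In NK cells of the WT library, 88.6% (80.1 to 94.4) of cells with an Il18r1 UMI also held one of Il18rap, against 72.4% (52.8 to 87.3) of cells without Il18r1. In NK cells of the Ring1aKO library the shares were 76.1% (61.2 to 87.4) and 44.4% (25.5 to 64.7). In other CD4 T cells they were 40.6% (32.2 to 49.5) and 16.3% (11.5 to 22.2) in the WT library, and 37.4% (27.4 to 48.1) and 11.4% (7.49 to 16.3) in the Ring1aKO library. The intervals were apart in other CD4 T cells of both libraries and overlapped in NK cells. These shares were not thinned, and a deeper cell is more likely to hold a UMI of each. Nearly all WT Th17 with Il1r1 held Il18r1 too, 60 of 62 cells (96.8%), against 14 of 20 (70.0%) in the Ring1aKO library. Of Th17 without Il1r1, 77.8% and 66.7% held Il18r1.

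The signalling IL-1 receptor was a type 17 gene. Il1r1 was highest in ILC3, at 264 CPM (214 to 323) in the WT library and 205 (162 to 256) in the Ring1aKO library, for a log2 ratio of -0.36 (-0.82 to 0.08). In Th17 it was at 185 CPM (158 to 216) and 76.9 (53.8 to 106), for a log2 ratio of -1.24 (-1.83 to -0.74). It was thus the third receptor chain past 2-fold lower in Th17, beside both IL-18 receptor chains. In γδ T cells Il1r1 was at 57.5 CPM (36.9 to 85.6) and 64.3 (46.2 to 87.2), and within them at 177 (106 to 276) and 144 (97.5 to 204) in the type 17 cells against 16.1 (5.24 to 37.7) and 23.7 (11.4 to 43.6) in the others. Treg held 19.6 CPM (13.0 to 28.3) and 29.2 (22.2 to 37.6), for a log2 ratio of 0.55 (-0.10 to 1.28). ILC2 had 2 UMIs in each library, neutrophils 0 and 1, and CD8 T cells 19 and 1. NK cells had 1 and 10 UMIs, of which 7 lay in 1 cell and 9 in cells rich in antigen-presentation genes.

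Genes of antigen-presenting cells were counted in the Th17 gate of the Ring1aKO library. Of its 50 cells, 4 held 10 or more UMIs of the same 5 genes, against 0 of 107 in the WT library. The summed level of these genes was 204 CPM in WT Th17 and 2750.2 in Ring1aKO Th17. Those 4 cells held 15 of 104 Il18r1 UMIs, 1 of 16 Il18rap UMIs and 4 of 36 Il1r1 UMIs. Without such cells all 3 receptor chains were still past 2-fold lower in Th17.

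The decoy receptor was at its highest in neutrophils. It was higher in the Ring1aKO library with an interval above 0 in 4 of 6 classes measured, namely neutrophils, Treg, Th17 and ILC2. How many of all genes had such an interval is not given, so the count has no background to be read against. Neutrophils held Il1r2 at 1833 CPM (1747 to 1922) and 1999 (1915 to 2086), for a log2 ratio of 0.13 (0.03 to 0.22), in 192 of 197 and 211 of 213 cells. Among the 9 classes compared, Treg came next with 109 CPM (92.6 to 128) and 174 (156 to 193), for a log2 ratio of 0.67 (0.40 to 0.95), from 41 of 210 and 67 of 220 cells. Treg with a UMI of Gata3 or Ikzf2 held 92.2 CPM (75.8 to 111) and 149.6 (131 to 169.9). Those with neither held more in both libraries, 193 CPM (142 to 258) and 261 (215 to 313), in 10 of 35 and 16 of 46 cells. As the mean over cells the log2 ratio in Treg was 0.24. In other CD4 T cells and CD8 T cells the log2 ratios were -0.29 (-1.07 to 0.46) and -0.34 (-1.16 to 0.45).

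Part of the Il1r2 UMIs in Treg, Th17, ILC2 and ILC3 lay in cells with genes of antigen-presenting cells. Mononuclear phagocytes, which express it, held 171 CPM (164 to 179) and 416 (399 to 435). In Treg the summed level of the 5 antigen-presenting cell genes was 997 and 1997 CPM, and the cells with 10 or more of their UMIs, 5 of 210 and 11 of 220, held 23 of 156 and 83 of 351 Il1r2 UMIs. The Treg log2 ratio without them was 0.6. In Th17 Il1r2 was at 78.6 CPM (61.3 to 99.3) and 128 (97.8 to 165), for a log2 ratio of 0.71 (0.18 to 1.22), and 29 of the 60 UMIs of the Ring1aKO library lay in such cells. Without them the log2 ratio in Th17 was -0.07. ILC3 had 1 Il1r2 UMI in the WT library and 25 in the Ring1aKO library, with 18 in 1 cell and 19 in such cells. In ILC2 Il1r2 was at 26.4 CPM (17.2 to 38.7) and 59.1 (42.1 to 80.8), for a log2 ratio of 1.15 (0.41 to 1.94), on 39 UMIs of 5 Ring1aKO cells with 17 in 1 cell. That ratio was 0.35 as the mean over cells and 1.05 without the cells rich in antigen-presenting cell genes, whose summed level in ILC2 was 418 and 2499 CPM. Those genes were also higher in other CD4 T cells (247 and 847 CPM), CD8 T cells (229.6 and 420.2 CPM) and NK cells (269.8 and 837 CPM). The Il1r2 intervals in other CD4 T and CD8 T cells, -1.07 to 0.46 and -1.16 to 0.45, leave room for both directions. NK cells held only 4 and 1 Il1r2 UMIs. The part of such cells in the Il1r2 differences was not tested.

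The shared accessory chain Il1rap was rarely counted in lymphocytes. Neutrophils held it at 302 CPM (268 to 339) and 256 (227 to 289), in 128 of 197 and 130 of 213 cells. Its log2 ratio there was -0.24 (-0.48 to 0.01), near the median of -0.22 over all genes measured in neutrophils. In ILC2 Il1rap had 5 and 2 UMIs and in Treg 9 and 10, although both classes were rich in Il1rl1, its partner. Of ILC2 with an Il1rl1 UMI, 3 of 83 in the WT library and 2 of 67 in the Ring1aKO library held a UMI of Il1rap. At this depth a transcript counted this seldom cannot be called absent from the other cells. Mononuclear phagocytes held 14.5 CPM (12.4 to 16.9) and 18.0 (14.4 to 22.1).

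Across the 9 classes compared, 32 receptor and class pairs reached 50 UMIs over both libraries, and 10 were past 2-fold, 9 lower and 1 higher. In Treg 3 of 5 measured members were lower (Il1rl1, Il18r1 and Il18rap), where 4.77% of 6392 genes were at least 2-fold lower and 2.72% higher. The study had already reported Il18r1 as reduced in Ring1aKO Treg of these data, so this count is not independent of that result. In Th17 3 of 4 were lower (Il18r1, Il18rap and Il1r1), where 5.80% of 3605 genes were lower and 2.25% higher. In CD8 T cells 2 of 3 were lower, against 3.16% of 8132 genes lower and 0.652% higher. In NK cells 1 of 2, Il18r1, was lower, against 3.32% of 3314 genes lower and 1.15% higher. These 4 classes held all 9 lower pairs.

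In ILC2 0 of 4 members were past 2-fold lower and 1, Il1r2, higher, where 5.00% of 3983 genes were lower and 2.79% higher. No member passed 2-fold in ILC3 (3.38% of genes lower and 2.41% higher), other CD4 T cells (2.92% and 0.823%), γδ T cells (2.5% and 1.89%) or neutrophils (10.9% and 2.18%) among those with 50 UMIs. Neutrophil Il18r1, at 49 UMIs, was just under that minimum. The median log2 ratio over the classes was -0.98 for Il18r1 and -0.76 for Il18rap, while the median of all genes lay between -0.22 and -0.02 by class.

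**Figure D4:**
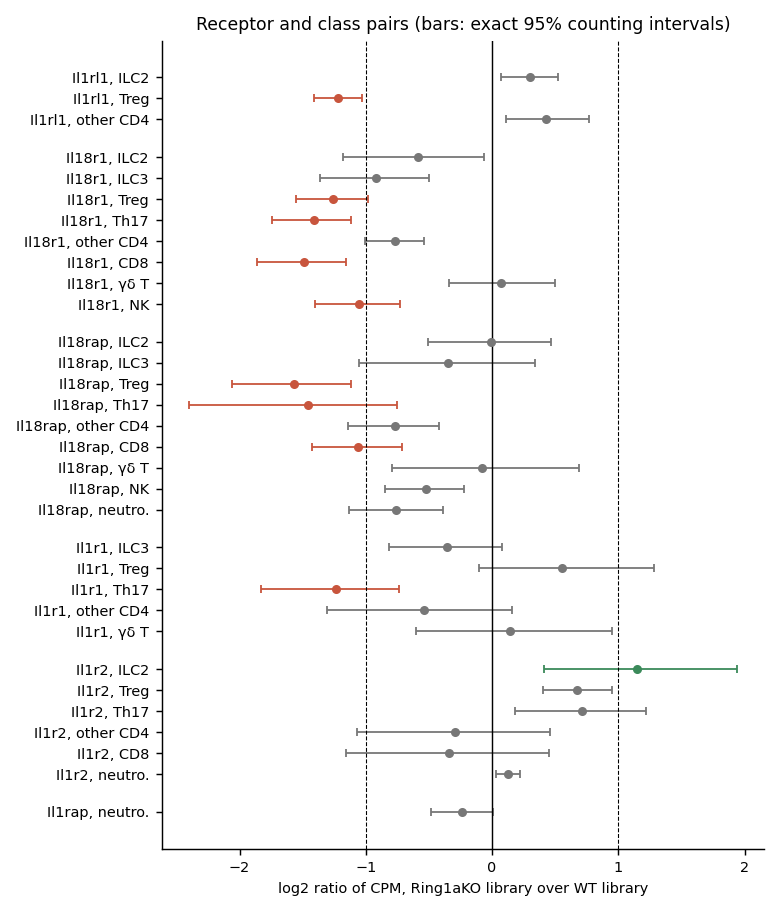
Log2 ratio of CPM, Ring1aKO library over WT library, for the 32 receptor and class pairs with at least 50 UMIs, with bars for exact 95% counting intervals and dashed lines at 2-fold. Red points are past 2-fold lower and the green point past 2-fold higher. All Il18rap points and 7 of 8 Il18r1 points lie left of 0.

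Other genes of the pathway were measured alongside. Of 26 other genes of the family and its signalling, 87 gene and class pairs were measured, of which 5 were past 2-fold lower and 0 higher, with a median log2 ratio of -0.17. The 5 were 1 of 9 genes measured in ILC2, 2 of 8 in Th17, 1 of 15 in CD8 T cells and 1 of 7 in NK cells. Since between 2.5% and 10.9% of all genes were past 2-fold lower by class, 5 of 87 was within the background. In Treg 13 such genes were measured and none was past 2-fold in either direction, with a median of -0.45. Myd88, the adaptor of the signalling receptors, was measured in 4 classes, with log2 ratios of -0.05 to 0.22. Traf6, which acts downstream of it, was measured in 3 classes. Its log2 ratio was -0.68 (-1.37 to 0.00) in Treg and -0.85 (-1.58 to -0.20) in other CD4 T cells. In CD8 T cells it was -0.39 (-0.88 to 0.10). Irak3, the inhibitory kinase of the pathway, was at 87.3 and 40.9 CPM in ILC2. The ligand Il1b was past 2-fold lower in Th17 (371 and 177 CPM), CD8 T cells (126 and 39.1 CPM) and NK cells (54.0 and 21.8 CPM). It was higher in Treg, at 142 and 207 CPM with a log2 ratio of 0.54 (0.30 to 0.80), and in ILC2, at 309 and 375 CPM with a log2 ratio of 0.28 (0.03 to 0.53). Il1rn, the receptor antagonist, was at 107 and 14.9 CPM in Th17. Both are genes of myeloid cells, and neutrophils held Il1b at 23403 and 15235 CPM and Il1rn at 2581 and 1635 CPM.

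Across 18 points, the 9 classes in each library, the genes with the pattern most like each receptor were found among 4356 genes by Pearson's r of log2(CPM + 10). For Il1rl1 these were Neb (0.90), Lgmn (0.89) and Klrg1 (0.89), for Il18r1 Dock2 (0.86), Mast4 (0.86) and Map3k14 (0.85), and for Il18rap Nabp1 (0.80), Zc3h12a (0.77) and Tnfsf14 (0.76). For Il1r1 they were Il17re (0.92), a chain of the IL-17C receptor, Scpep1 (0.90) and Prelid2 (0.89). For Il1r2 they were Ccr1 (0.94), Plbd1 (0.94) and Trib1 (0.92), and for Il1rap Cd300ld, Mrgpra2a and Cd33 (0.98 each). Among the receptors themselves r was 0.82 between Il1r2 and Il1rap, 0.67 between Il18r1 and Il1r1 and only 0.34 between both IL-18 receptor chains. The neighbours Il1rl1 and Il18r1 had an r of 0.00. Points of a class share its gate and points of a library its depth, so these values describe the pattern only.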

How the data were processed

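Cells of DSS-treated WT and Ring1aKO colons were counted by the authors with 10x Genomics 3′ chemistry and Cell Ranger. The deposited matrices hold counts of UMIs for each gene in all barcodes, before any cell selection or normalization. The study's methods name mm10, the submitters' processing notes mm39 and Cell Ranger 6.0.2, and the file headers Cell Ranger 4, so no coordinate was read from the counts. The libraries hold 74414511 (WT) and 81862096 (Ring1aKO) UMIs.

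Barcodes with at least 1000 UMIs, at least 500 genes and under 5% mitochondrial UMIs were kept as cells, which removed 421 and 643 barcodes. Classes were gated on marker UMIs. Cells that passed the gates of more than 1 lineage, 317 and 487, were left out, and no doublet caller was run. Treg required a Foxp3 UMI, and Th17 required Cd4 with a UMI of a type 17 gene such as Il17a, Il17f or Il23r. Some gate genes are not reported here. UMIs were summed per class, and log2 ratios had 1 UMI added to each sum. Genes that reached 50 UMIs in a class over the libraries together were compared and called at 2-fold, with no test. Intervals are Poisson for levels, Clopper-Pearson for shares and conditional on the summed UMIs for ratios. Shares were thinned to 1000 UMIs per cell where this is stated, and are otherwise not thinned. The genes named are the 6 members, listed pathway genes past 2-fold and the 3 most alike in pattern, from genes of at least 50 CPM in at least 2 points, without gate markers. Myd88 and Traf6 were named as well, although neither was past 2-fold where measured. Members and lists were chosen with earlier results of these data known. Python 3.11.15, numpy 2.4.6, scipy 1.17.1 and pandas 2.3.3 were used. On simulated Treg counts of 6392 genes, 99.5% of 200 genes changed 2-fold had the right direction and 95.7% of intervals held the true value. These counts were drawn from the Poisson model that the intervals assume, so they check the calculation only. Clustering of UMIs within cells was not simulated. A set of 11 alternatives was tried, and a further 2 were chosen after seeing the data. RefSeq promoter windows matched 6 of 6 genes, with 10 windows.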

Additional observations from a re-analysis of the deposited data

How the results depend on the processing

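No paired analysis was possible because each genotype had 1 library, and for the same reason no library could be left out. Of the 32 receptor and class pairs, between 30 and 32 stayed within their counting intervals under other limits on cells, mitochondrial or ribosomal UMIs, raised gates, another denominator, subtraction of free RNA and removal of the 5% of cells with the most UMIs. With the mean over cells 28 of 32 did. The count past 2-fold, 10, lay between 7 and 10 in these, and was 13 when pairs with at least 20 UMIs were counted. Without the 5% of cells with the most UMIs, Il1rl1 had a log2 ratio of 0.63 in ILC2 and -0.90 in Treg, and with the mean over cells it was -0.64 in Treg, where Il1r1 reached 1.04. No pair past 2-fold changed sign.

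The alternatives added after the data were seen left out lymphoid cells by marker. Without cells holding a UMI of Ccr7, Lef1 or S1pr1, 22 pairs could be compared, 3 of them were past 2-fold with 50 UMIs left (Il18r1 in NK cells at -1.16, Il18rap in Treg at -1.09 and Il1r2 in ILC2 at 1.24), 15 stayed within their intervals, and the log2 ratios in Treg were -0.32 for Il1rl1 and -0.78 for Il18r1. Th17 and ILC3 had too few cells left and were not compared, so the 3 lower pairs of Th17 were not checked in this way. Of Th17, 76 of 107 WT and 36 of 50 Ring1aKO cells held such a UMI. Il18rap in CD8 T cells was then just short of 2-fold lower. This leaves fewer cells, and the WT Treg so kept had a median of 5211 UMIs against 6147 for those removed, and the Ring1aKO Treg 4766 against 8199.5. Without cells rich in antigen-presenting cell genes 26 pairs could be compared and 9 were past 2-fold. The pairs of mast cells could not be compared, with 3 WT cells. Il1rap in the lymphoid classes of the 10, and Il1r1 in CD8 T and NK cells, stayed under 50 UMIs and were not compared.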

Other observations

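Outside the 10 classes, mononuclear phagocytes held 33.1% of the Il1r2 UMIs of WT cells and 28.5% of those of Ring1aKO cells, about as many as neutrophils with 29.3% and 29.4%. Their Il1r2 log2 ratio was 1.28 (1.19 to 1.37), and a UMI was found in 569 of 1098 and 306 of 559 of them. Thinned to 1000 UMIs, 13.5% and 23.4% held one. Il18rap was lower there, at 13.2 CPM (11.1 to 15.5) and 7.88 (5.60 to 10.8), for a log2 ratio of -0.71 (-1.29 to -0.22). Il1r1 was at 5.30 CPM (4.05 to 6.83) and 9.50 (6.98 to 12.6). B cells, the largest class, held Il18r1 at 3.40 and 2.86 CPM. Cells in no gate held 21.1% and 29.4% of the Il18r1 UMIs, at 84.2 CPM (77.8 to 90.9) and 73.6 (67.3 to 80.3), for a log2 ratio of -0.19 (-0.36 to -0.02). They also held 30.9% and 31.9% of the Il1r1 UMIs, at 29.0 CPM in each library. Over all cells Il18r1 was at 50.1 and 24.8 CPM, and the makeup of the libraries differed, with B cells at 19.6% and 44.3% of cells.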
